A study of Rattus norvegicus with 58 samples.

Results

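Livers of heterogeneous stock (HS) rats were compared according to how much of the desaturase transcript Scd they held. The HS is an outbred rat colony bred down from several inbred founders, so that each rat carries its own mix of their alleles. All 46 HS rats were males killed at an age of 17 weeks after a night without food, and their livers were frozen at once. By the labels, 23 of them were glucose-intolerant and 23 were glucose-normal, and the labels name no other treatment. The arrays were ranked by the log2 expression of the only probe set that carries the single symbol Scd, and both ends were chosen by this value. The 12 highest, called high-Scd livers, were set against the 12 lowest, called low-Scd livers, and the 22 arrays between them belonged to neither end. These 24 livers came from 58 in the whole series, which also holds 12 livers of inbred males of the same age, 2 each of F344, BUF, ACI, M520, WKY and BN.

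Scd encodes stearoyl-CoA desaturase, an enzyme of the endoplasmic reticulum that puts a double bond into saturated fatty acyl-CoA and so makes the monounsaturated fatty acids used for triglycerides, phospholipids and cholesterol esters. In liver its transcription is known to follow feeding: insulin acts through the product of Srebf1, sugars act through the product of Mlxipl, and oxysterols act through the liver X receptors Nr1h3 and Nr1h2. The same inputs are known to drive Fasn, Acly, Acaca and the elongase Elovl6, and the rats of this study were fasted, a state in which these genes are normally low.

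Scd chose the groups, so its own values are a description without a test. High-Scd livers had a lowest, median and highest log2 value of 11.57, 11.99 and 13.16, against 7.14, 8.60 and 9.43 in low-Scd livers. The means were 12.03 ± 0.43 in high-Scd livers and 8.36 ± 0.78 in low-Scd livers (SD, n = 12 each), a gap of 3.68 on the log2 scale, or 12.8-fold. The high end had no natural edge: its lowest array stood at 11.57 and the next array, in the middle, at 11.55. The low end began at 9.43, and the nearest middle array stood at 9.74. The low end spread more widely than the high end.

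**Figure D1:**
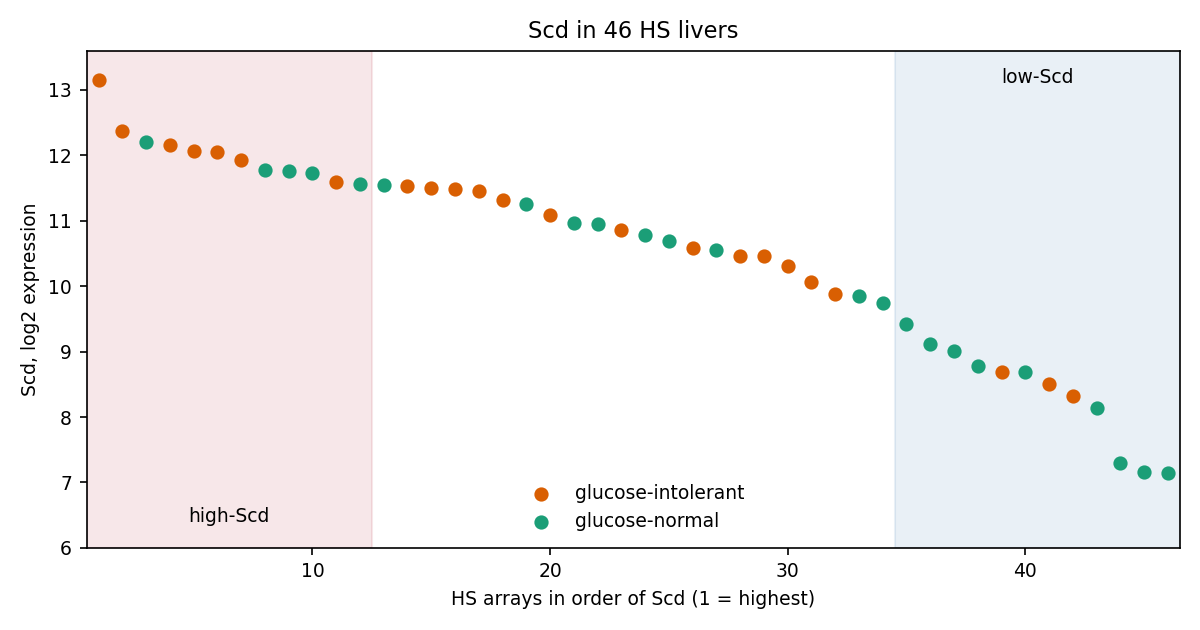
Log2 expression of Scd (vertical axis) in 46 HS livers in order of rank (horizontal axis), 1 point per liver, coloured by glucose status; shading marks the 12 high-Scd livers on the left and the 12 low-Scd livers on the right. The high end runs from 11.57 to 13.16 and the low end from 7.14 to 9.43, and both colours occur at both ends.

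Glucose status did not choose the groups and could be tested. The high end held 7 glucose-intolerant and 5 glucose-normal livers, and the low end held 3 glucose-intolerant and 9 glucose-normal livers. The odds ratio was 3.94 with a 95% interval from 0.568 to 35.2, and Fisher's exact test gave p = 0.214 (two-sided), so the imbalance did not pass the test at this number of rats. All of the 3 lowest Scd values, between 7.14 and 7.30, were in glucose-normal rats, and the highest value, 13.16, was in a glucose-intolerant rat.

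To show what sequence stands at the start of the ranking gene, of the fructose transporter gene Slc2a5 and of the elongase gene Elovl5, 2 genes described below, their promoters are given from RefSeq (GRCr8), each from 250 bases before to 50 bases after the annotated start, 5′ to 3′ on the strand of the gene. The windows were searched on both strands for the E-box CACGTG, the CCAAT box CCAAT, the sterol response element TCACNCCAC and the TATA box TATAAA, and matches, which do not overlap in these windows, are in capitals. Scd lies at chr1:253231682-253231981 (minus strand), Slc2a5 at chr5:165865929-165866228 (plus strand) and Elovl5 at chr8:87670914-87671213 (plus strand).
Scd: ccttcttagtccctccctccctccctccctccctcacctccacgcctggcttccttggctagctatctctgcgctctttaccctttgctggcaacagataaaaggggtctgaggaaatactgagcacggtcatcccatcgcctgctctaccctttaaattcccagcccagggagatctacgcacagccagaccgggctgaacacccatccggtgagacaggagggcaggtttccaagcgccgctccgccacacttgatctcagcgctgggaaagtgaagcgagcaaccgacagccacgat
Slc2a5: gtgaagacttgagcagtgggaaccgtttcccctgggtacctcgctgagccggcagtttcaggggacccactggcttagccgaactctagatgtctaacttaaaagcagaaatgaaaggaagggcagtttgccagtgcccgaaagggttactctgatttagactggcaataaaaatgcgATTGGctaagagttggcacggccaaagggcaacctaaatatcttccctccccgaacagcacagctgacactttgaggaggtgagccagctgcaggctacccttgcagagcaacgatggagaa
Elovl5: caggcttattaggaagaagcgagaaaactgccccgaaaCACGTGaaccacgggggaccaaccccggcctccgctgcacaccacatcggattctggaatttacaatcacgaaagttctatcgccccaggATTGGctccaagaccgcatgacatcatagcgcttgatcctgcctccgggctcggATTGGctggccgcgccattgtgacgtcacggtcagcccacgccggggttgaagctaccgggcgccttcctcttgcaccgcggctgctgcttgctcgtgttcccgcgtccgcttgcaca
The Scd window holds 0 matches to these letters. The Slc2a5 window holds 1 CCAAT box, read on the other strand as ATTGG, and the Elovl5 window holds 1 E-box and 2 CCAAT boxes. Of 33469 rat promoters of this length, 6.42% hold the E-box, 37.5% the CCAAT box, 1.12% the sterol element and 14.2% the TATA box. Of the 25 genes of fatty acid and triglyceride synthesis listed here, Scd included, 20 had a promoter sequence, and 1, 12, 0 and 1 of them held these motifs in that order. These are matches of letters near the annotated start and not measured binding.

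Few genes besides Scd passed the test between the ends. In limma's moderated test, Benjamini-Hochberg adjustment ran over all 31042 probe sets, that of Scd included. Of the 31041 others, 8 had an adjusted p under 0.05, which is 0.0258%. Of these 8, 5 were higher (0.0161%) and 3 lower (0.00966%) in high-Scd livers. They include 6 of 14216 named genes (0.0422%), 3 higher (0.0211%) and 3 lower (0.0211%). Because the arrays were ranked on Scd and not treated, these tests say how other transcripts go with Scd among these rats. The 2 remaining probe sets carry no gene symbol. Of these, 1 was the only probe set in the table whose ends did not overlap, with 8.40 to 9.10 in high-Scd livers and 7.92 to 8.39 in low-Scd livers (0.00322% of probe sets, and 0 of 14216 genes), and had adjusted p = 0.0103. The other differed by 0.72 with adjusted p = 0.0394. The p of Scd was fixed by the ranking, and its place in the adjustment lowered the adjusted p of the other probe sets. Calls with an adjusted p from 0.0394 to 0.0447 depend on this place of Scd. The calls at 0.00518 (Aldh1l2) and 0.0103 do not. At an unadjusted p under 0.05 stood 3142 probe sets (10.1%), and among genes 677 were higher (4.76%) and 903 lower (6.35%). All expression values are on the log2 scale, on which 1 unit is a doubling, and differences are high-Scd minus low-Scd.

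Aldh1l2 showed the smallest p among genes. It encodes a mitochondrial formyltetrahydrofolate dehydrogenase, a folate enzyme that yields NADPH. Its lowest, median and highest levels were 10.44, 10.78 and 11.07 in high-Scd livers and 9.73, 10.13 and 10.79 in low-Scd livers. All 12 high-Scd livers lay above 10.21, and of the low-Scd livers 1 did, at 10.79. The difference was 0.64 ± 0.094 (SE, n = 12 each) with adjusted p = 0.00518 in limma, and it was 0.75 within glucose-intolerant and 0.56 within glucose-normal livers.

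Slc2a5 encodes the main fructose transporter. Its levels were 5.70, 6.59 and 7.18 (lowest, median, highest) in high-Scd livers and 5.53, 5.61 and 6.19 in low-Scd livers. Its signal is close to the array medians, which lie between 5.33 and 5.39, and most low-Scd livers clustered near their median while the high-Scd livers spread over the whole range. The difference was 0.80 ± 0.148 (SE) with adjusted p = 0.0447.

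Esm1, which encodes the endothelial proteoglycan endocan, had the largest difference of the called genes. Its levels were 5.83, 6.29 and 7.75 in high-Scd livers and 3.30, 4.73 and 6.89 in low-Scd livers. The low-Scd median lay below the array medians of 5.33 to 5.39, so the signal at that end was dim. The low end spread more widely (SD 0.97) than the high end (SD 0.54), and 1 low-Scd liver lay among the upper high-Scd livers. The difference was 1.60 ± 0.297 (SE) with adjusted p = 0.0447. Of the 13 measured liver endothelial markers, 0 were called, and their mean level ran from 7.37 to 7.90 in high-Scd livers and from 7.08 to 7.82 in low-Scd livers.

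Sash1, Cerk and Pcp4l1 were the called genes of lower level in high-Scd livers. Sash1, a scaffold protein of signalling complexes, had levels of 8.70, 9.03 and 9.33 in high-Scd livers and 8.99, 9.47 and 9.91 in low-Scd livers. It fell by 0.45 (SE 0.081, adjusted p = 0.0447). Cerk, the kinase that phosphorylates ceramide, had levels of 6.87, 7.09 and 7.23 in high-Scd livers and 7.20, 7.34 and 7.56 in low-Scd livers. Only 2 high-Scd livers lay inside the low-Scd range, and the difference was -0.28 ± 0.051 (SE, adjusted p = 0.0447). Pcp4l1, a small protein related to the calmodulin-binding protein Pcp4, had levels of 6.27, 7.06 and 8.36 in high-Scd livers and 7.11, 8.54 and 9.09 in low-Scd livers. It fell by 1.23 (SE 0.229, adjusted p = 0.0447), and its second probe set differed by -1.16 (adjusted p = 0.0731).

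**Figure D2:**
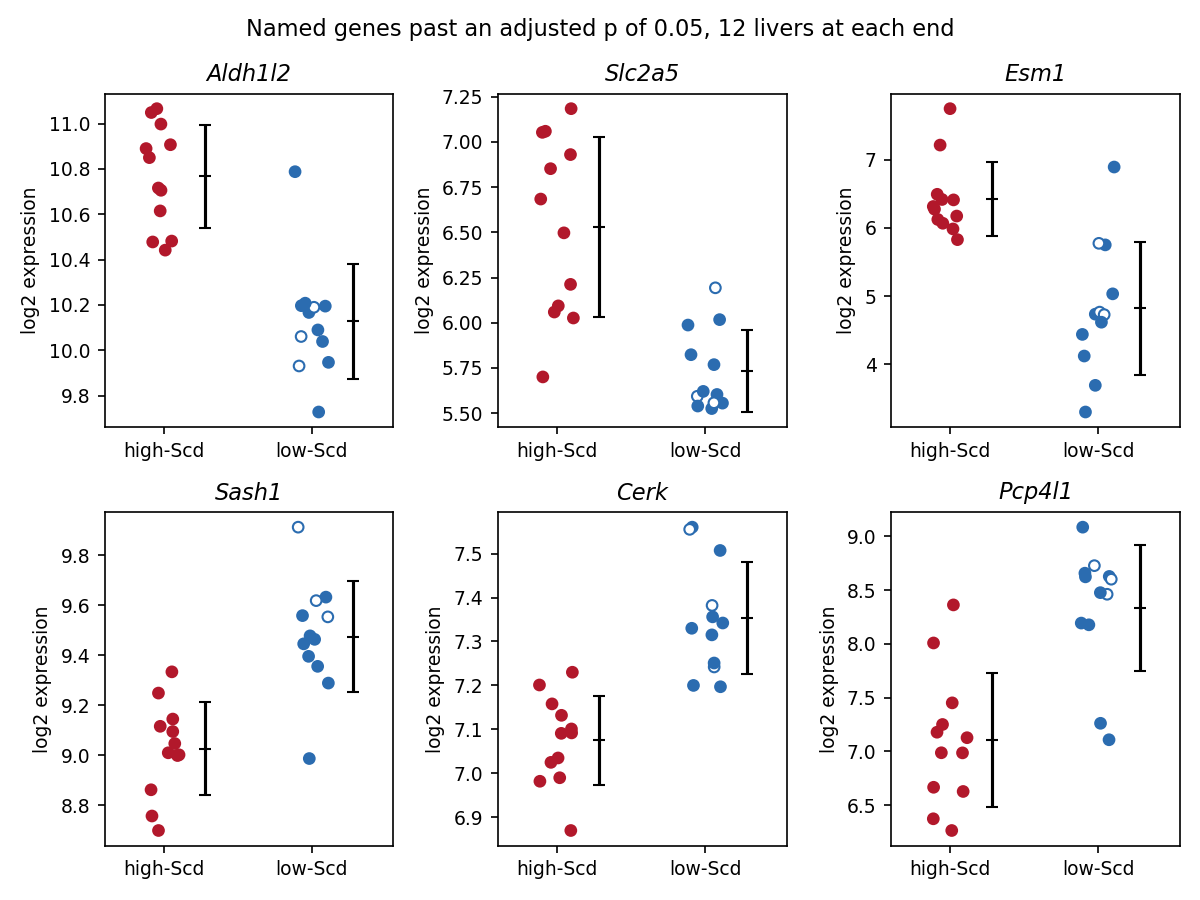
Log2 expression (vertical axes) of the 6 called genes in 12 high-Scd livers (left in each panel) and 12 low-Scd livers (right); points are livers, the bar beside them is the mean ± SD, and open points are the 3 low-Scd livers of highest score on the first principal component. The first row is higher and the second row lower in high-Scd livers, and the ends overlap in every panel.

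These calls rest on all 24 livers, and those of the genes other than Aldh1l2 also on the place of Scd in the adjustment. HS39, HS41 and HS18, all of them low-Scd and 2 of them glucose-intolerant, scored 45.8, 43.8 and 34.7 on the first principal component of the 46 HS arrays, which holds 17.9% of the variance, while no other of the 24 arrays exceeded 17.5. Middle arrays also scored high, up to 37.2 in HS16, so these 3 livers are apart from the other arrays of the ends and not from all HS arrays. Without these 3 livers, 0 probe sets were called in limma (2166 at an unadjusted p under 0.05), yet the differences stayed close: 0.61 for Aldh1l2 (adjusted p = 0.0551), 0.81 for Slc2a5 (adjusted p = 0.0649), 1.69 for Esm1 (adjusted p = 0.061), -0.38 for Sash1 (adjusted p = 0.0907), -0.26 for Cerk (adjusted p = 0.0716) and -1.14 for Pcp4l1 (adjusted p = 0.117). Leaving out single livers kept Aldh1l2 called in 24 of 24 fits, and each of the other 5 genes in 8 to 10 of 24. With glucose status as a covariate 3 probe sets were called, 2 of them shared with the 8, and Aldh1l2 was among the 3 (difference 0.64, adjusted p = 0.0163).

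The lipogenic genes averaged higher in high-Scd livers, but 0 of the 24 measured besides Scd were called. Of these 24 genes of fatty acid and triglyceride synthesis, 18 had a positive difference, against 44.7% of all genes, and the median was 0.29, against -0.01 over all genes. At an unadjusted p under 0.05 there were 12 with a positive and 1 with a negative difference, against 4.76% and 6.35% of all genes. The median was 0.12 within glucose-intolerant and 0.22 within glucose-normal livers, both below the pooled 0.29. Without the 3 livers named above it was 0.28, with 19 positive. A share of 18 in 24 positive was not particular to this list. The 24 measured genes of fatty acid oxidation and PPARalpha targets also had 18, with a lower median of 0.095 and 0 called. At an unadjusted p under 0.05 in limma, 2 of them were positive and 1 negative.

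Of the enzymes that make saturated chains, Fasn, the fatty acid synthase, had levels of 7.88, 9.12 and 10.02 in high-Scd livers and 7.22, 8.33 and 9.42 in low-Scd livers. Its ends overlapped over most of their range, with a difference of 0.67 ± 0.256 (SE, adjusted p = 0.381). Acly, which supplies cytosolic acetyl-CoA from citrate, differed by 0.55 (adjusted p = 0.309), and its partner Slc25a1, the mitochondrial citrate carrier, by 0.24 (adjusted p = 0.335). Acaca, which carboxylates acetyl-CoA to malonyl-CoA in the cytosol, differed by 0.40 (adjusted p = 0.162), while Acacb, the mitochondrial form of this enzyme, was at 4.22 in high-Scd livers and 4.14 in low-Scd livers by the median and differed by -0.001. Me1, the malic enzyme that supplies NADPH, differed by 0.47 on its brightest probe set and by 0.18 on its second (adjusted p = 0.313 and 0.718).

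Elovl5, which lengthens polyunsaturated chains, was the list member of smallest p. Its levels were 11.97, 12.19 and 12.61 in high-Scd livers and 11.20, 11.73 and 12.26 in low-Scd livers. Every high-Scd liver lay above the low-Scd median, and 1 low-Scd liver above the high-Scd median. The difference was 0.48 ± 0.098 (SE, adjusted p = 0.0627), with 0.41 within both the glucose-intolerant and the glucose-normal livers, and a dimmer second probe set differed by 1.23 (adjusted p = 0.284). All 46 HS livers also entered a limma slope on Scd, which uses the same 24 livers and the 22 others. Elovl5 then had the smallest adjusted p of all genes besides Scd (2.89e-05, slope 0.14 ± 0.018 per log2 unit of Scd). It was the only lipogenic list member called, among 36 genes with a positive (0.253%) and 29 with a negative slope (0.204%). Elovl6, which lengthens palmitate, differed by 0.58 (adjusted p = 0.289) and Elovl2, another elongase of polyunsaturated chains, by 0.37 (adjusted p = 0.586).

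The other desaturases did not pass. Fads2, which opens the desaturation of dietary polyunsaturated fatty acids, had levels of 9.75, 10.65 and 10.92 in high-Scd livers and 8.47, 9.97 and 10.66 in low-Scd livers. Its difference was 0.61 ± 0.182 (SE, adjusted p = 0.237), and that of Fads1, which acts after it in the same pathway, was 0.58 ± 0.216 (SE, adjusted p = 0.365). Scd2, the paralog of Scd, was at 4.84, 6.25 and 7.64 in high-Scd livers and 4.74, 6.13 and 6.46 in low-Scd livers. Its difference of 0.30 ± 0.235 (SE, adjusted p = 0.697) did not pass, with a 95% interval from -0.19 to 0.78.

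Thrsp, a small nuclear and cytosolic protein induced with lipogenesis, had the largest difference in the list. Its levels were 9.80, 10.33 and 11.72 in high-Scd livers and 8.73, 9.77 and 10.33 in low-Scd livers. The difference was 0.90 ± 0.207 (SE, adjusted p = 0.096), and 2 further probe sets of Thrsp gave 1.14 and 1.23. The enzymes of the last steps toward triglyceride differed little: Dgat1 by 0.01, Dgat2 by -0.03, Agpat2 by -0.02 and Gpam by -0.18, each with an adjusted p of 0.725 or more. Lpin1, a phosphatidate phosphatase and coactivator that is known to be high in fasting, had the lowest difference of the 6 negative members, with a median of 8.68 in high-Scd livers and 9.93 in low-Scd livers (difference -0.70 ± 0.338 SE, adjusted p = 0.49).

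**Figure D3:**
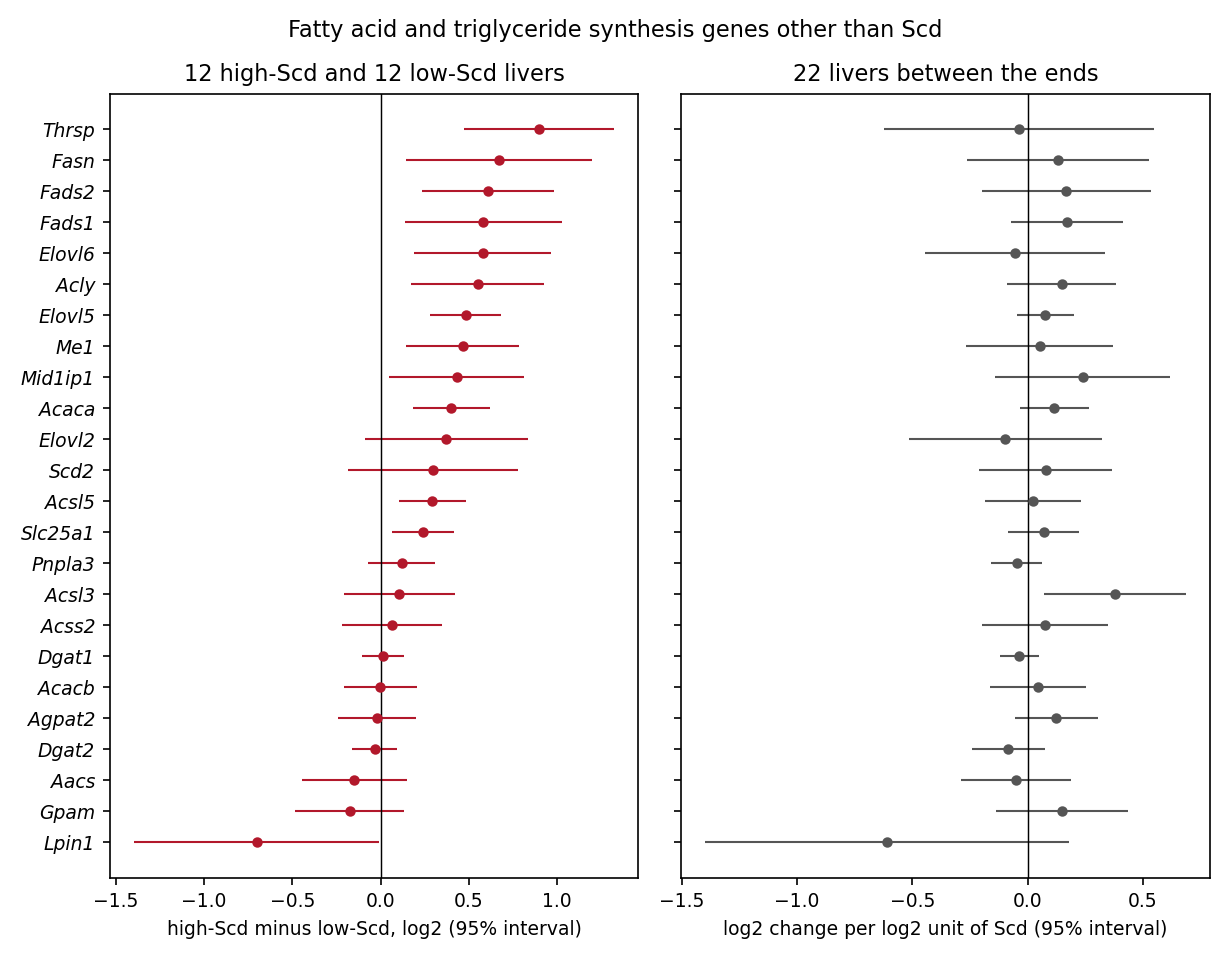
The 24 measured genes of fatty acid and triglyceride synthesis other than Scd; the left panel gives the high-Scd minus low-Scd difference on the log2 scale for 12 and 12 livers, and the right panel the slope per log2 unit of Scd in the 22 livers between the ends, each with its 95% interval. On the left 18 of 24 points lie above 0, from Thrsp at 0.90 to Lpin1 at -0.70, and on the right 16 of 24, mostly with intervals that cross 0.

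Among regulators of lipogenesis, Srebf1 was the gene of smallest p. Its levels were 9.35, 10.21 and 10.73 in high-Scd livers and 8.84, 9.58 and 10.08 in low-Scd livers, and 0 low-Scd livers reached the high-Scd median. The difference was 0.65 ± 0.163 (SE, adjusted p = 0.134), and the second Srebf1 probe set gave 0.66. The array does not separate its isoforms. Mlxipl, which encodes the carbohydrate response factor, differed by 0.09 (adjusted p = 0.83), the liver X receptor Nr1h3 by -0.002 and Nr1h2 by 0.02, and Srebf2, the regulator of cholesterol synthesis, by -0.11 (adjusted p = 0.831). Of the 14 measured regulators 0 were called, with 6 positive differences and a median of -0.03 (-0.11 within glucose-intolerant and 0.10 within glucose-normal livers).

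Genes that bring sugar into the liver and into glycolysis gave 1 of the called genes, Slc2a5, among 14 measured, against 0.0422% of all genes. Slc2a2, the glucose transporter of hepatocytes, had levels of 11.62, 11.93 and 12.22 in high-Scd livers and 11.09, 11.59 and 11.88 in low-Scd livers. No low-Scd liver reached the high-Scd median, and the difference was 0.41 ± 0.082 (SE, adjusted p = 0.0627). Khk, which phosphorylates fructose once it has entered the cell, differed by 0.27 ± 0.061 (SE, adjusted p = 0.0898). Pklr, the pyruvate kinase at the end of liver glycolysis, differed by 0.52 ± 0.130 (SE, adjusted p = 0.136). In the slope over all 46 HS livers 3 list members were called, Slc2a5 (adjusted p = 0.0194), Khk (0.00292) and Pklr (0.0265), all with positive slopes, against 0.253% of all genes, whereas Slc2a2 was not (0.128). The list was evenly split, with 7 positive and 7 negative differences and a median of 0.003. On the negative side, Pfkfb1, a bifunctional enzyme that makes and removes an activator of glycolysis, differed by -0.45 (adjusted p = 0.537) and Aldoa, an aldolase, by -0.15 (adjusted p = 0.444), while Pgk1 (0.01), Tpi1 (-0.01) and Pgam1 (-0.01) lay near 0.

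Pdk1, a kinase that shuts pyruvate dehydrogenase, had a median of 8.61 in high-Scd livers and 8.28 in low-Scd livers. Both of its probe sets had adjusted p = 0.0627, with differences of 0.41 and 0.36. Glycogen genes had positive differences in 8 of 10 members (median 0.16, with 0.04 within glucose-intolerant and 0.12 within glucose-normal livers), led by Gyg1, the glycogenin primer, with 0.29 (adjusted p = 0.27), and 0 were called. The gluconeogenic list had 3 of 8 positive with a median of -0.05 and 0 called. Of all genes, 44.7% had a positive difference.

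Among the genes of smallest p with positive differences, several were near the threshold without passing it. Apoa4, an apolipoprotein of triglyceride-rich particles, had levels of 11.97, 12.51 and 13.17 in high-Scd livers and 11.22, 11.75 and 12.43 in low-Scd livers (difference 0.68 ± 0.143 SE, adjusted p = 0.0652). Dbi, the acyl-CoA binding protein, had a difference of 0.28 ± 0.059 (SE, adjusted p = 0.0652), and Aldh3a2, which oxidises fatty aldehydes, of 0.25 ± 0.052 (SE, adjusted p = 0.066). Cyp17a1, a steroid hydroxylase, differed by 1.18 ± 0.247 (SE, adjusted p = 0.0652). Of the 17 measured genes of apolipoproteins and lipoprotein export 0 were called, with 12 positive, against 44.7% of all genes, and a median of 0.02. Of the 19 measured genes of lipid droplets and fatty acid uptake 0 were called either, with 10 positive and a median of 0.02, and the transporter Cd36 among them differed by 1.09 ± 0.39 (SE, adjusted p = 0.34).

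Of genes with lower means in high-Scd livers, Mboat1, which puts acyl chains onto lysophospholipids, had levels of 5.09, 5.80 and 6.12 in high-Scd livers and 5.93, 6.25 and 6.60 in low-Scd livers (difference -0.51 with an SE of 0.1, adjusted p = 0.0627). Smpd3, a neutral sphingomyelinase that releases ceramide, differed by -0.50 ± 0.102 (SE, adjusted p = 0.0652). Idh2, the mitochondrial NADP-dependent isocitrate dehydrogenase, differed by -0.50 ± 0.101 (SE, adjusted p = 0.0627). Trib3, a pseudokinase that binds Akt, differed by -0.52 ± 0.109 (SE, adjusted p = 0.0652), with the same sign on all 3 of its probe sets. Arhgap8, Atp5if1, Pkdcc, Tbc1d9 and Lect2 had differences from -0.77 in Pkdcc to -0.29 in Atp5if1 with adjusted p from 0.0625 to 0.0718. At an adjusted p under 0.1 there were 19 genes with positive (0.134%) and 20 with negative differences (0.141%).

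Binding proteins that insulin is known to lower in liver did not pass the test. Igfbp2, a binding protein of insulin-like growth factors, had levels of 6.22, 6.87 and 7.84 in high-Scd livers and 6.74, 7.89 and 9.29 in low-Scd livers. No high-Scd liver lay above the low-Scd median, and the difference was -0.92 ± 0.242 (SE, adjusted p = 0.161). Igfbp1, which is known to rise in fasting, differed by -0.94 ± 0.260 (SE, adjusted p = 0.184). Of the 7 genes of this list 0 were called and 4 had positive differences, among them Ghr, the growth hormone receptor, with 0.20 (adjusted p = 0.335) and Igf1 with 0.14 (adjusted p = 0.478). Igfbp3, Igfbp4 and Igfals each differed by 0.06 or less in size.

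The list with the lowest median was that of glucocorticoid targets, of which 11 of 15 had negative differences, against 7862 of 14216 genes. Its median was -0.26 with 0 called. The median was -0.48 within glucose-intolerant livers, of which 3 stood at the low end, and -0.05 within glucose-normal livers. Among its members were Fkbp5 with -0.77 (adjusted p = 0.424) and Tsc22d3 with -0.60 (adjusted p = 0.461). Of 16 measured clock genes 11 had positive differences, against 44.7% of all genes, and 0 were called. Their median was 0.17, with 0.04 within glucose-intolerant and 0.43 within glucose-normal livers. Bhlhe40, a repressor in the clock that also answers to feeding, differed by 1.03 ± 0.211 (SE, adjusted p = 0.0652). Dbp differed by 1.43 (adjusted p = 0.289) and Per2 by 0.91 (adjusted p = 0.254), whereas Npas2 differed by -0.92 (adjusted p = 0.445) and Bmal1 by -0.47 (adjusted p = 0.679). The sources used here do not give the hour at which a rat was killed. The chaperone Hspb1 differed by -1.24 ± 0.32 (SE, adjusted p = 0.161).

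**Figure D4:**
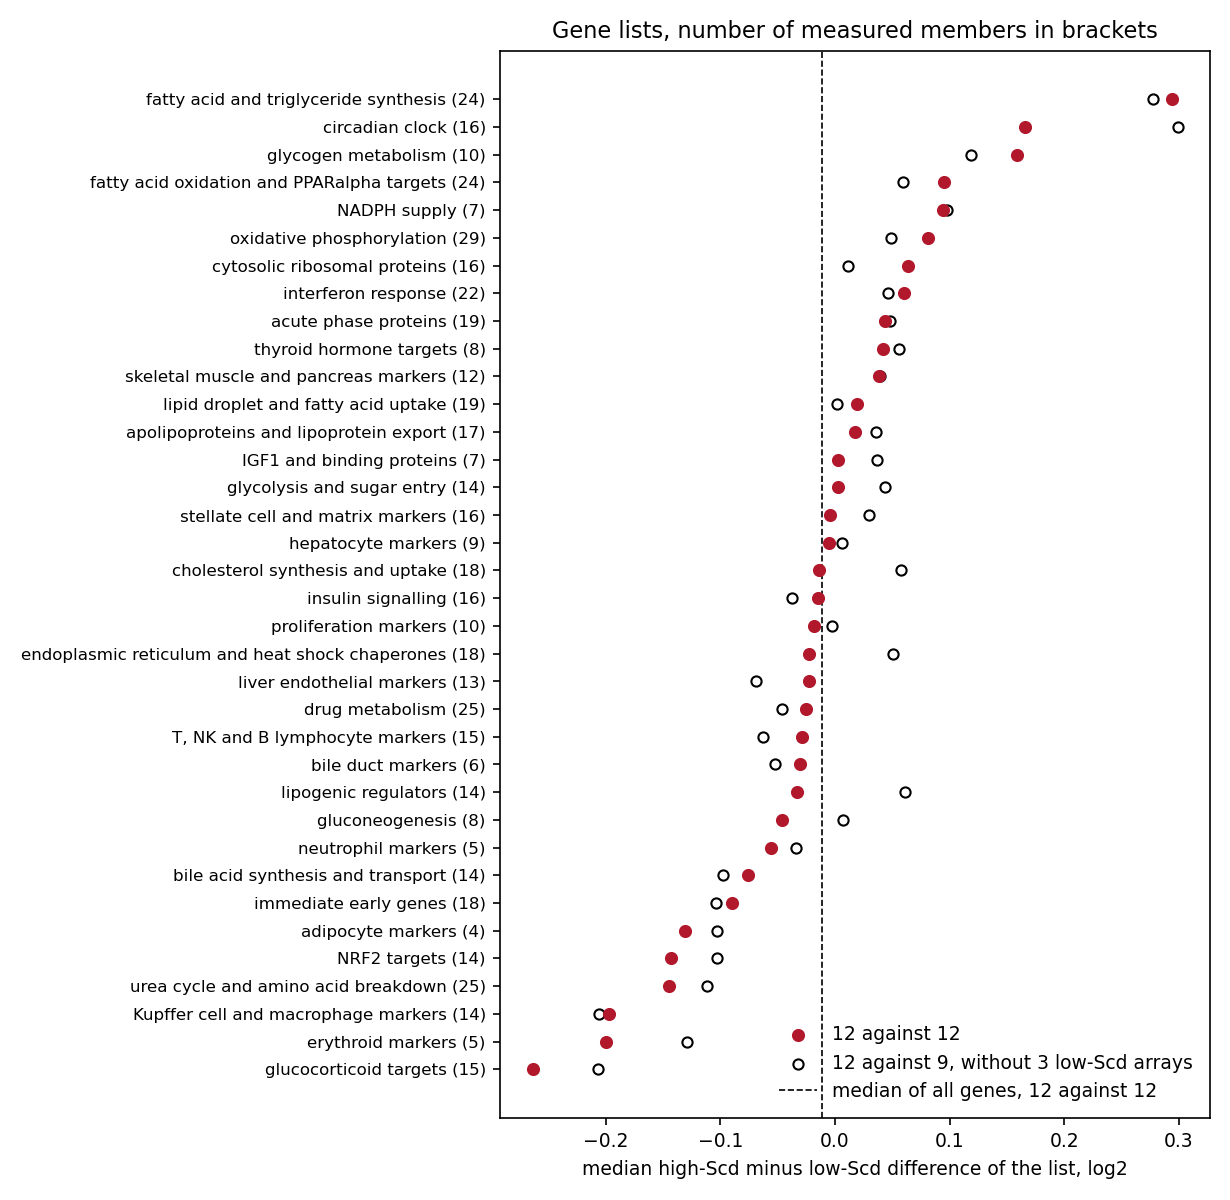
Median high-Scd minus low-Scd difference on the log2 scale (horizontal axis) of the measured members of 36 gene lists (rows), filled for 12 high-Scd against 12 low-Scd livers and open for 12 against 9, without the 3 low-Scd livers of highest score on the first principal component; the dashed line is the median of all genes at -0.01. Fatty acid and triglyceride synthesis lies highest at 0.29 among the filled points and the glucocorticoid targets lowest at -0.26; several lists near 0, such as cholesterol synthesis and lipogenic regulators, turn sign when the 3 livers are left out.

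Marker levels of cell types were set beside these results. The hepatocyte markers averaged from 13.46 to 13.64 in high-Scd livers and from 13.52 to 13.67 in low-Scd livers, levels far above the array medians. Of these 9 markers 0 were called, and their median difference was -0.005. Of 14 Kupffer cell and macrophage markers, 13 had negative differences, against 7862 of 14216 genes. At an unadjusted p under 0.05 stood 7 of the markers, all negative, against 6.35% of all genes. The median of the markers was -0.20 with 0 called, led by Clec4f with -0.36 and C1qa with -0.31. The sign was not the same in both glucose groups: their median was 0.10 within glucose-intolerant and -0.31 within glucose-normal livers. Their mean level ran from 8.11 to 8.78 in high-Scd livers and from 7.74 to 9.12 in low-Scd livers, and the part of these cells in the differences above was not tested. In such whole-liver RNA, fewer cells of a type and less RNA per cell cannot be told apart. The 5 erythroid markers all had negative differences over the 24 livers (median -0.20, 0 called), but the median was 0.15 within glucose-intolerant and -0.43 within glucose-normal livers, and the remaining marker lists had medians between -0.13 and 0.04.

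The livers between the ends, which neither group used, gave a test of whether the same genes go with Scd over its middle range of 1.81 log2 units. In a limma fit of each probe set on Scd in these 22 livers, 0 of 31041 probe sets were called (0%), the smallest adjusted p was 0.514, and 1124 stood at an unadjusted p under 0.05 (3.62%). The range of Scd here is less than that between the ends, 3.68 between means, so a slope is measured with less precision. Of the 24 lipogenic genes 16 had a positive slope, against 47.8% of all genes, and their median was 0.07 per log2 unit of Scd. At an unadjusted p under 0.05 there was 1 with a positive slope, Acsl3 with 0.38, against 1.67% of all genes, and 0 with a negative slope, against 1.72%. The slope was 0.08 for Elovl5 (95% interval -0.05 to 0.20), 0.25 for Srebf1 (-0.09 to 0.59), 0.13 for Fasn (p = 0.492, unadjusted) and -0.04 for Thrsp (-0.62 to 0.55).

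Of the called genes, Aldh1l2 had a slope of 0.10 (95% interval -0.17 to 0.36), Slc2a5 of -0.05 (-0.33 to 0.24), Sash1 of -0.10 (-0.28 to 0.07), Cerk of -0.01 (-0.11 to 0.09) and Pcp4l1 of -0.07 (-0.57 to 0.43). Esm1 stood out with 1.20 (0.53 to 1.87, unadjusted p = 0.00112, adjusted p = 0.999). This slope rested on 3 livers: the 3 of lowest Scd in the middle had Esm1 levels of 3.28, 3.38 and 3.41, against 4.78 to 8.67 in the other 19, and without them the slope was 0.32 ± 0.374 (SE, p = 0.396). The same 3 livers had Igfbp2 levels of 8.08, 8.71 and 9.66, against 6.01 to 8.62 in the other 19, and the Igfbp2 slope of -0.76 (unadjusted p = 0.0179) was -0.09 ± 0.352 (SE, p = 0.803) without them. Leaving them out was chosen after these values were seen. Over the middle, then, none of the called genes had a slope that passed the test.

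**Figure D5:**
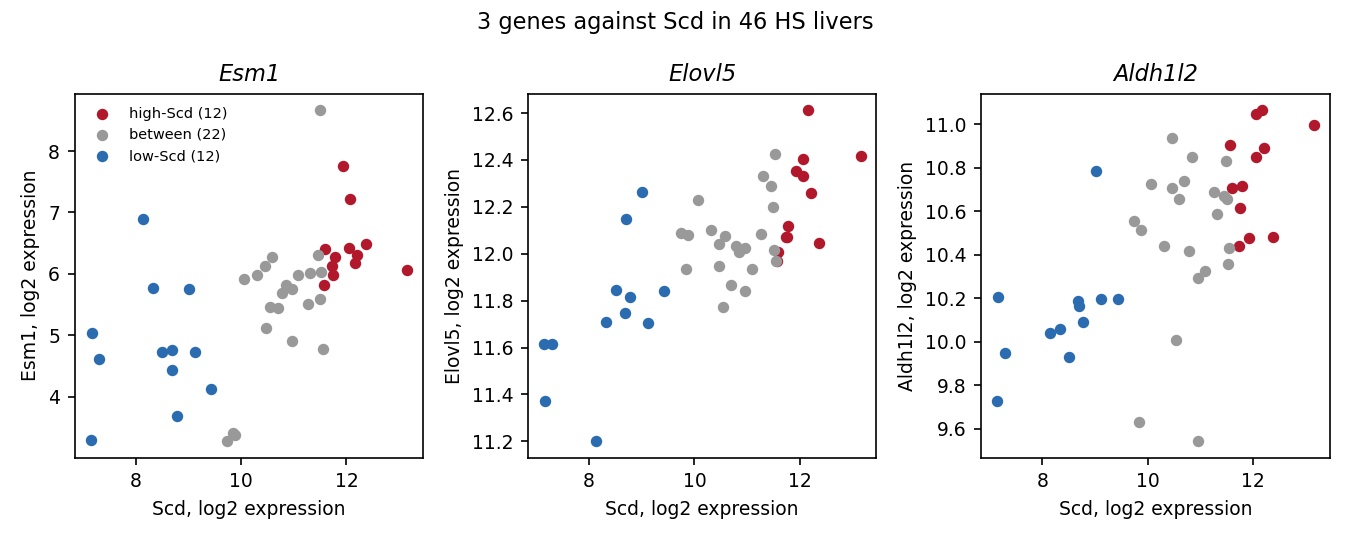
Log2 expression of Esm1, Elovl5 and Aldh1l2 (vertical axes) against that of Scd (horizontal axes) in 46 HS livers, 1 point per liver, coloured by position in the Scd ranking. In Esm1 the 3 grey livers of lowest Scd lie at 3.28 to 3.41, below the 19 other grey livers, and Elovl5 runs from 11.20 in a low-Scd liver to 12.61 in a high-Scd liver.

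Whether the differences depended on glucose status was asked by an interaction term over the 24 livers, in which 7 and 3 intolerant and 5 and 9 normal livers made up the high and low ends. In limma 0 of 31041 probe sets were called (0%), the smallest adjusted p was 0.083, and 3378 stood at an unadjusted p under 0.05 (10.9%). The called genes had the same sign in both groups: Slc2a5 differed by 0.83 within intolerant and 0.70 within normal livers, and Pcp4l1 by -1.41 within intolerant and -1.22 within normal livers. They had been called on the pooled difference of the same 24 livers, which makes a shared sign likely in advance. Other genes had unlike values, without passing the test of the difference: Fads1 differed by -0.06 within intolerant and 0.92 within normal livers (adjusted p = 0.434 for the interaction), and Fgf21, a hormone of fasting, by 1.38 within intolerant and -0.15 within normal livers (adjusted p = 0.307). The 18 genes of cholesterol synthesis and uptake had a median difference of -0.56 within intolerant and 0.25 within normal livers. Only 3 intolerant livers stood at the low end, and 2 of them, HS41 and HS18, are among the 3 of highest score on the first principal component.

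In the inbred strains, described without a test, Scd ran from 4.79 to 11.10, against 7.14 to 13.16 in the HS rats. F344 had the highest values, 11.10 and 10.47, followed by BUF with 10.64 and 8.87, ACI with 9.23 and 9.51, M520 with 9.56 and 9.03, WKY with 8.16 and 7.38, and BN with 4.79 and 4.80. The arrays of neighbouring strains overlapped from F344 down to M520, while WKY lay below these and BN below WKY and below every HS liver. Both BN values were under the array medians of 5.33 to 5.39, so the signal was dim and the size of the BN gap is uncertain. Of the called genes, Esm1 was at 4.77 or less in every inbred liver, under the lowest high-Scd value of 5.83 whatever the strain's Scd. Pcp4l1 ran the other way from Scd at the extremes, with strain means of 6.52 in F344 and 6.64 in BUF against 8.27 in WKY and 8.81 in BN. Elovl5 did not follow the HS order, with 11.66 in F344 against 12.30 in WKY and 12.15 in BN.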

How the data were processed

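Liver RNA of 58 male rats had been amplified by a two-cycle kit, labelled with biotin and hybridised to Affymetrix rat arrays, per the labels' protocols. The authors deposited log2 expression values for 31042 probe sets, from 1.86 to 14.97, with array medians from 5.33 to 5.39. The submitters' processing notes name Partek, and how the arrays were normalised is not stated in the sources used here. An array has no read depth, so the number of arrays limits the precision. Litters, cages and scan dates are not given either, no batch could be tested, so the p-values speak of the spread among these livers alone.

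Glucose status was taken from the sample titles. Of the probe sets 20826 carried a single symbol, 436 several and 9780 none, from the platform annotation with symbols updated through gene identifiers to RefSeq's GRCr8 table, where 14167 of 14217 genes were found. The brightest probe set over all arrays stood for a gene. Tests used limma 3.58.1 (lmFit, eBayes) in R 4.3.3 on the log2 values without a filter. Benjamini-Hochberg adjustment ran over all probe sets, that of Scd included, with a threshold of 0.05. Scd was left out of the counts only, and the adjustment was not repeated without it. The tests compared the 12 highest with the 12 lowest arrays, fitted the slope on Scd in the 22 others, and fitted an interaction with glucose status. The fits were tested on simulated data. Genes were named by rule: the 12 of smallest p on each side where fewer than 12 were called, plus, for each list, its called members (at most 4) or its member of smallest p. Other list members are given beside their list, and Esm1 and Igfbp2 in the middle livers were singled out after their values were seen. The members, the lists and the rules were chosen with earlier results of these data known. Alternatives covered normalisation, filters, weights, covariates, numbers of arrays per end and single arrays left out.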

Additional observations from a re-analysis of the deposited data

Results flagged for a closer look

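Aldh1l2 in the low-Scd glucose-normal livers had 1 liver far from the others: HS14 was at 10.79, and the other 8 lay between 9.73 and 10.21. This was the only such gap by Dixon's criterion among 21 groups of livers and genes tested. Chance flags about 1 in 20, so 1 flag among 21 is no more than chance would give. The groups included those of Scd itself, whose values were cut by the ranking, so for Scd the criterion is no fair test. The level of HS14 lies within the range of the high-Scd livers, 10.44 to 11.07. Without HS14 or any other single liver Aldh1l2 stayed called, with differences from 0.60 to 0.70.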

How the results depend on the processing

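The number of probe sets called between the ends depended on the settings. It was 8 as reported, 12 with quantile normalisation, 3 with median centring, 36 among the brighter probe sets, 25 with 1 probe set per gene, 4 with trend and robust variances, 3 with glucose status as a covariate, 14 with array weights and 10 with the 6 highest and 6 lowest of each glucose group. Other cuts of the ranking gave 30 for 8 against 8, 54 for 16 against 16, 0 for 23 against 23 (2879 at an unadjusted p under 0.05) and 91 for the slope over all 46 livers, which include all 8. Within glucose-intolerant livers 11 were called and within glucose-normal livers 1. Leaving out single livers gave 2 to 29. In fits that were added after seeing the data, leaving out the 3 livers of lowest mean correlation gave 1 call, leaving out the 3 low-Scd livers farthest along the first principal component gave 0, and taking the first principal component as a covariate gave 10. The settings also differ in the number of probe sets tested and of livers used, and the cause of the changes was not tested. The difference of each of the 6 called genes kept its sign in all 102 values of these alternatives and all 144 with a liver left out, though it was no longer called in 57 and 77 of them. These genes were called for their small p in the same livers. A kept sign was therefore nearly fixed in advance and is no separate support. Of the other 49 named genes, 64 of 826 values were newly called and 2 changed sign, both within glucose-normal livers: Fgf21 to -0.147 and Krt19 to 0.006.

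In the middle livers, 0 were called in every setting run, leaving out single livers included. The slope of Cerk was 0.005 with glucose status as a covariate and -0.029 to 0.013 without single livers, that of Slc2a5 was 0.024 with array weights and -0.129 to 0.027, that of Pcp4l1 was -0.142 to 0.112, and that of Aldh1l2 was -0.025 to 0.132 and, without the 3 middle livers of lowest Scd, -0.031. The interaction called 0 in all 6 settings run. For glucose status, Fisher's exact p was 0.315, 0.156 and 0.238 with 8, 16 and 23 livers per end. The alternative with another Scd probe set was not run, since only 1 carries the single symbol. No paired analysis was possible because each HS rat has a number of its own and the inbred values come from no test. Dim signals such as Acacb, near 4, limit what a difference can show.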

Other observations

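Oxidative phosphorylation had positive differences in 23 of 29 members, against 44.7% of all genes (median 0.08, 0 called). Among them were Sdhb with 0.20 (adjusted p = 0.341) and Sdha with 0.23 (adjusted p = 0.352), both subunits of succinate dehydrogenase. In the 22 middle livers 27 of the 29 slopes were positive, against 47.8% of all genes, with a median of 0.06 per log2 unit of Scd and 0 called. Within the 24 livers the median was 0.15 for glucose-intolerant and 0.04 for glucose-normal rats. Without the 3 low-Scd livers farthest along the first principal component, 23 of 29 differences were positive with a median of 0.05. Of the 29 members, 0 then had an unadjusted p under 0.05, against 5 with a positive and 1 with a negative difference in all 24 livers.

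Drug metabolism genes had 7 negative and 1 positive difference among 25 at an unadjusted p under 0.05 (median -0.03, 0 called). Over all genes the shares were 6.35% negative and 4.76% positive. Fmo1, a flavin monooxygenase, had levels of 10.16, 10.74 and 11.27 in high-Scd livers and 10.24, 11.33 and 11.77 in low-Scd livers. Its difference was -0.53 ± 0.13 (SE, adjusted p = 0.134), and -0.63 without the 3 livers (adjusted p = 0.0551). The P450 gene Cyp3a2 differed by -0.29 (adjusted p = 0.161), and Nr1i3, the receptor that drives many drug metabolism genes, by -0.43 (adjusted p = 0.453).

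Bile acid synthesis and transport had mixed values. Cyp8b1, the sterol hydroxylase of the cholic acid branch, differed by -0.35 (adjusted p = 0.348), Cyp7a1, the rate-limiting enzyme of bile acid synthesis, by -0.69 (adjusted p = 0.497) and the bile acid receptor Nr1h4 by 0.20 ± 0.06 (SE, adjusted p = 0.21). Of the 14 genes of this list 6 had positive differences, and 0 were called.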
